A study of Mus musculus with 28 samples.

Results

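The biliary phospholipid and sterol secretion genes described here were 10 genes given by symbol: *Abcb4*, *Abcg5*, *Abcg8*, *Atp8b1*, *Pctp*, *Pemt*, *Lpcat3*, *Pcyt1a*, *Baat*, and *Slc27a5*. The symbols were matched to Ensembl mouse gene identifiers, and all 10 were found among the 21935 genes of the count table. All 10 were also among the 12580 genes with enough counts to be tested. Male B6.V-Lepob/JRj mice, which lack leptin and become obese, arrived at 5 weeks of age and ate the AMLN diet, which is high in cholesterol, fructose, and fat, for 14 weeks before dosing and throughout it. Over the 2 weeks of dosing they received vehicle, OCA at 30 mg/kg, or INT-787 at 30 mg/kg by mouth each day, with 10 mice assigned to each group. Messenger RNA from the terminal liver was sequenced, and the data hold 10 vehicle, 9 OCA, and 9 INT-787 mice. Leptin deficiency and the diet were shared by the 3 groups, so there was no lean or chow-fed group. The groups allow each drug to be compared with vehicle and the 2 drugs to be compared at 1 dose and time. OCA is the bile acid chenodeoxycholic acid with an added ethyl group, and INT-787 is OCA with an added hydroxyl group; both activate the farnesoid X receptor (FXR), a nuclear receptor for bile acids.

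Hepatocytes secrete bile through the canalicular membrane, where bile acids would dissolve the membrane if phospholipid and cholesterol were not secreted with them. ABCB4 moves phosphatidylcholine to the outer leaflet, ABCG5 and ABCG8 pair to export sterols, and ATP8B1 flips phospholipids back to the inner leaflet. Phosphatidylcholine is made in the liver by the choline route, whose rate-limiting enzyme is encoded by *Pcyt1a*, and by methylation of phosphatidylethanolamine by PEMT. PCTP carries phosphatidylcholine between membranes, LPCAT3 sets its fatty acids, and SLC27A5 and BAAT join bile acids to coenzyme A and then to taurine or glycine.

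The sequences upstream of *Abcb4* and between *Abcg5* and *Abcg8* are shown because these are the transporter genes for the 2 lipids of bile and because the 2 sterol transporter genes start next to each other on opposite strands. The windows come from RefSeq on GRCm38.p6, and those of 7 of the 10 genes were searched. Whether the other 3 genes have windows there is not described here. The capitals in the *Abcb4* sequence (chr5:8893471-8893720, + strand) mark, from the left, a CCAAT box read on the reverse strand, the letters GATAAG on the reverse strand, and a GC box, GGGCGG. In the sequence between the starts of *Abcg5* and *Abcg8* (chr17:84683012-84683120, + strand) the capitals mark GATAAG and TATAAA, both on the reverse strand.
Abcb4 upstream: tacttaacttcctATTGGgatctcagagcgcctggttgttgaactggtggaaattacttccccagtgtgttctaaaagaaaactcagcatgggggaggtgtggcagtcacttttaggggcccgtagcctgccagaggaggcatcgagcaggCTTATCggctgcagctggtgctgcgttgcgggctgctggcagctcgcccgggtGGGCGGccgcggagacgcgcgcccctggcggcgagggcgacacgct
Abcg5-Abcg8 between starts: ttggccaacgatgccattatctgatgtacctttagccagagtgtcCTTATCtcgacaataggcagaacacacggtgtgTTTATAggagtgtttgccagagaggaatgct
The *Abcb4* stretch of 250 bases was 61.6% G or C, and the 109 bases between the 2 sterol transporter genes were 45.9% G or C. *Abcg5* starts at 84683011 on the reverse strand and *Abcg8* at 84683121 on the forward strand. Of 32851 RefSeq promoter windows, read on both strands, 7.44% held GATAAG, 13.6% TATAAA, 35.7% GGGCGG, and 37.4% CCAAT. The letters AGGTCA followed after 1 base by TGACCT, a strict form of the inverted repeat that FXR is known to bind, were in 0.00913% of all windows. They were in none of the windows searched for the 7 genes, and the other 3 genes were not searched. A match of letters is a description of the sequence, and these windows cover only the bases next to each start.

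Library totals ranged from 1009593 counts in vehicle replicate 6 to 22421506, and the next lowest was 9313260. Vehicle replicate 5 stood apart in another way. Over 60 nearly silent genes that lie opposite an expressed gene, its counts were 0.59 of those that the overlapping bases of the expressed genes would give, against 0.00503 to 0.0176 in the other 27 mice. Values below are CPM, counts scaled to a common library size with TMM, as mean ± SD, and each comparison was also made without vehicle replicates 5 and 6. Known FXR targets changed with both drugs: compared with vehicle, *Nr0b2*, which encodes the repressor SHP, rose by 1.62 on the log2 scale with INT-787 and 1.17 with OCA, *Slc51b*, a bile acid exporter subunit, by 3.31 and 2.68, and *Abcb11*, the bile salt export pump, by 1.70 and 1.19. *Cyp7a1*, whose enzyme limits the rate at which bile acids are made, had log2 fold changes of -2.28 and -2.54. The libraries also held the RNA of other liver cells, with every marker detected, and lower marker levels in whole liver cannot tell apart fewer cells of a type and less RNA per cell.

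Compared with vehicle, INT-787 changed 8 of the 10 genes at an adjusted p of at most 0.05 (edgeR's quasi-likelihood test, Benjamini-Hochberg over 12580 genes). *Abcb4*, *Abcg5*, *Abcg8*, *Atp8b1*, *Pemt*, *Pcyt1a*, and *Slc27a5* rose, and *Pctp* fell. Among all tested genes 19.6% were called in this comparison, 10.2% as higher and 9.48% as lower. OCA changed 5 of the 10, with *Abcg5*, *Abcg8*, *Atp8b1*, and *Pemt* higher and *Pctp* lower. The background for OCA was 6.6% of genes called, 4.15% higher and 2.45% lower. The median log2 fold change of the 10 genes was 0.40 with INT-787 and 0.16 with OCA, beside 0.00 and 0.02 over all tested genes. Both drugs were compared with the same 10 vehicle mice, so these lists are not independent of each other. In the direct comparison of INT-787 with OCA, 0 of the 10 passed, where 5.38% of all tested genes did (2.19% higher and 3.19% lower with INT-787). In that comparison 5 of the 10 had an unadjusted p under 0.05, and DESeq2 called 2 of the 10, *Abcb4* and *Pcyt1a*, as did edgeR with the replicate number as a block, while limma-voom called 0. *Lpcat3* and *Baat* did not pass in any of the 3 comparisons. Without vehicle replicates 5 and 6, the INT-787 count was 7, the OCA count 5, and the count for INT-787 against OCA 0.

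**Figure D1:**
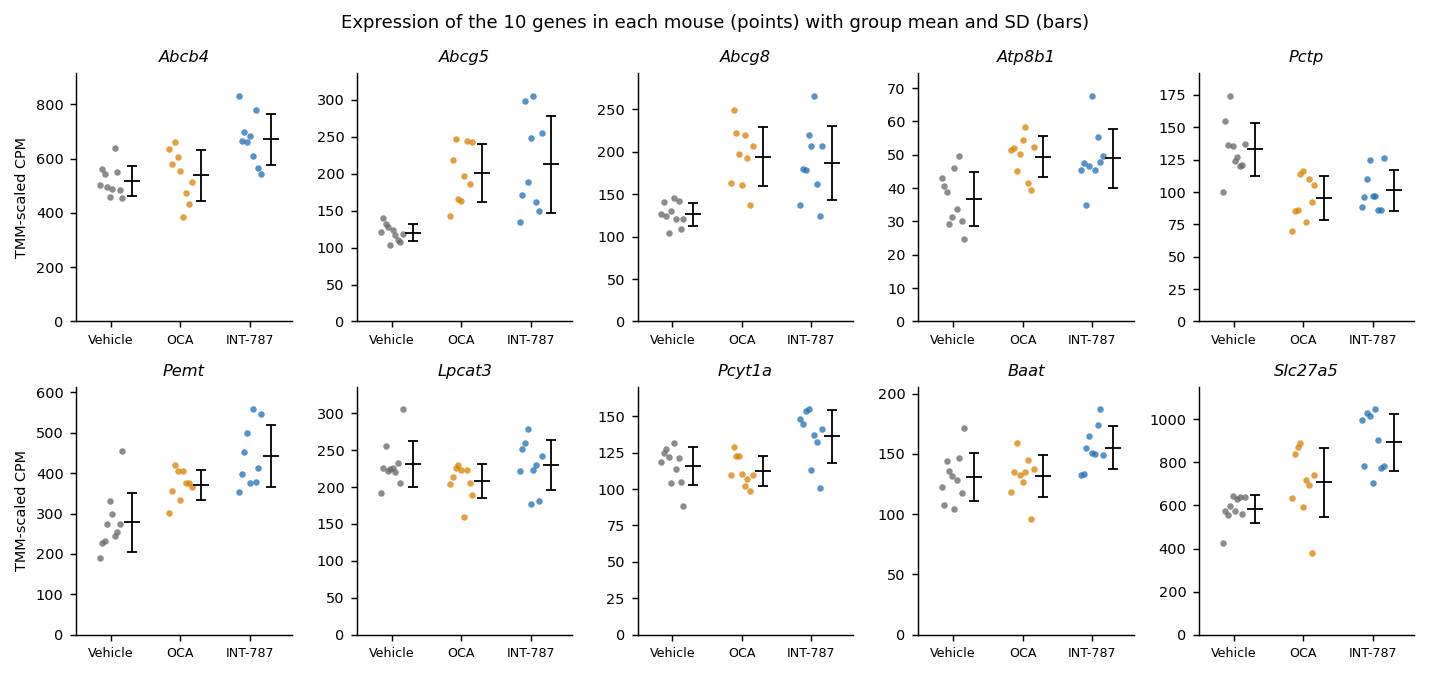
TMM-scaled CPM of each of the 10 genes (vertical axes, each from 0) in each mouse (points) of the vehicle (n = 10), OCA (n = 9), and INT-787 (n = 9) groups, with the group mean and SD as black bars. For Abcg5, the 9 OCA mice lie above the highest vehicle mouse, and for Slc27a5 the 9 INT-787 mice do.

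Per length of exon, the vehicle livers held most *Slc27a5* RNA (239 ± 26.7 CPM per kb) and then *Pemt* (132 ± 34.9). *Lpcat3* (70.7 ± 9.48), *Baat* (67.4 ± 10.3), *Abcb4* (55.3 ± 5.97), *Pctp* (48.8 ± 7.49), and *Abcg5* (44.3 ± 4.19) followed. *Lpcat3* and *Baat* differed by less than the larger of their SDs, as did *Abcb4* and *Pctp*, and *Pctp* and *Abcg5*. *Abcg8* (33.7 ± 3.65), *Pcyt1a* (15.6 ± 1.78), and *Atp8b1* (5.47 ± 1.21) were lowest, and each of these lay more than its own SD below the gene before it. In the INT-787 livers *Slc27a5* and *Pemt* stayed the highest, at 366 ± 54.5 and 209.9 ± 36.4 CPM per kb.

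**Figure D2:**
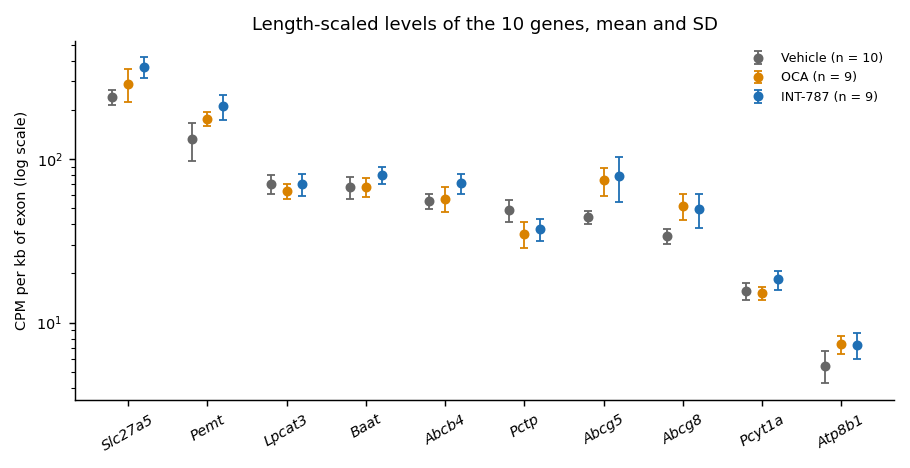
Mean CPM per kb of exon (log scale) with SD for the 10 genes, ordered by their level in vehicle mice, in the 3 groups (vehicle n = 10, OCA n = 9, INT-787 n = 9). The order runs from Slc27a5 at 239 to Atp8b1 at 5.47 CPM per kb in vehicle mice, and Abcg5 lies below Pctp in vehicle mice and above it with either drug.

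*Abcb4* (ENSMUSG00000042476, GRCm38 chr5:8893717-8959231, + strand) ranged from 456 to 639.8 CPM in vehicle mice, with a median of 499. OCA mice ranged from 387 to 663 (median 554) and INT-787 mice from 545 to 832 (median 667). The OCA mice spanned the vehicle range and went beyond it at both ends, whereas 6 of 9 INT-787 mice lay above the highest vehicle mouse. *Abcb4* rose 1.29-fold with INT-787 (log2 0.37, SE 0.098, 95% interval 0.17 to 0.57, adjusted p = 0.00712). With OCA the log2 fold change was 0.05 (interval -0.15 to 0.25, adjusted p = 0.853). The difference between the drugs was 0.32 (interval 0.11 to 0.52), with an adjusted p of 0.0589. That p lay between 0.0269 and 0.0482 when 1 mouse was left out, for each of vehicle replicate 10, OCA replicates 1 and 3, and INT-787 replicates 8 and 9, and was 0.0264 with DESeq2 and 0.0403 with the replicate number as a block.

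*Abcg5* (ENSMUSG00000040505, chr17:84658234-84683011, - strand) encodes 1 of the 2 subunits of the sterol transporter and had the highest log2 fold change of the 10 genes with either drug. Vehicle mice ranged from 103 to 140.3 CPM (median 119.9), OCA mice from 143 to 247 (median 196), and INT-787 mice from 135 to 305 (median 189). The OCA and vehicle groups did not overlap, and 8 of 9 INT-787 mice lay above the vehicle range. The rise was 1.77-fold with INT-787 (log2 0.82, interval 0.55 to 1.1, adjusted p = 3.61e-05) and 1.67-fold with OCA (log2 0.74, interval 0.47 to 1.02, adjusted p = 0.00037). The drugs differed by 0.08 (interval -0.20 to 0.36, adjusted p = 0.828).

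*Abcg8* (ENSMUSG00000024254, chr17:84676302-84700333, + strand), the partner subunit, ranged from 104 to 145 CPM in vehicle mice (median 126). The range was 137 to 249 in OCA mice (median 197) and 124 to 266 in INT-787 mice (median 180.1). Above the highest vehicle mouse lay 8 of 9 OCA mice and 7 of 9 INT-787 mice. *Abcg8* rose 1.48-fold with INT-787 (log2 0.56, interval 0.33 to 0.80, adjusted p = 0.000713) and 1.54-fold with OCA (log2 0.62, interval 0.38 to 0.86, adjusted p = 0.000521). Its difference between the drugs was -0.06 (interval -0.30 to 0.19, adjusted p = 0.865). The exons of *Abcg5* and *Abcg8* overlap by 82 bases on opposite strands, so reads from those bases may be split between them where strand was not kept. The opposite-strand ratio given above was 0.59 in vehicle replicate 5 and at most 0.0176 in the other 27 mice.

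The ratio of *Abcg5* to *Abcg8* within each library does not depend on the scaling between libraries. Its mean log2 value was -0.07 ± 0.20 in vehicle, 0.04 ± 0.26 in OCA, and 0.16 ± 0.28 in INT-787 mice. The groups overlapped. None of the 3 ratios examined here passed in any comparison after adjustment over 9 exact two-sided permutation tests: for *Abcg5* to *Abcg8* the adjusted p was 0.0803 for INT-787 against vehicle (0.0463 without INT-787 replicate 4) and 0.408 for OCA. Across the 28 mice, after the group means were removed, *Abcg5* and *Abcg8* had the highest correlation of the 45 pairs of members (Pearson r = 0.645, permutation p = 0.00211, adjusted p = 0.0949; Spearman rho = 0.586, adjusted p = 0.0817). It was 0.513 without the 2 mice farthest from the median, and was then not the highest. With 2 mice left out in the same way for each pair, *Lpcat3* with *Pcyt1a* (0.699) and *Pctp* with *Lpcat3* (0.544) were higher. Of the 45 pairs, 0 had an adjusted p of at most 0.05.

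**Figure D3:**
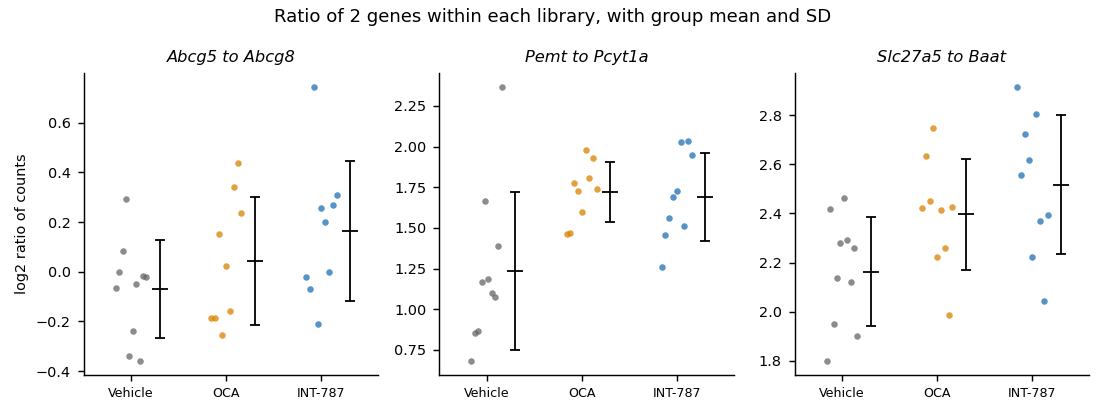
Log2 ratio of the counts of 2 genes within each library (vertical axes) for each mouse (points) with group mean and SD (black bars): Abcg5 to Abcg8, Pemt to Pcyt1a, and Slc27a5 to Baat. The groups overlap in all 3 panels, and 1 vehicle mouse has the highest Pemt to Pcyt1a ratio of all mice, 2.37.

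*Atp8b1* (ENSMUSG00000039529, chr18:64528967-64661267, - strand), the phospholipid flippase, had the lowest level of the 10 genes. It ranged from 24.7 to 49.7 CPM in vehicle mice (median 36.3), 39.4 to 58.2 in OCA mice (median 51.6), and 34.9 to 67.7 in INT-787 mice (median 47.7). The groups overlapped, with 6 of 9 OCA mice and 2 of 9 INT-787 mice above the highest vehicle mouse. *Atp8b1* rose 1.34-fold with INT-787 (log2 0.43, interval 0.19 to 0.66, adjusted p = 0.00877) and 1.36-fold with OCA (log2 0.44, interval 0.20 to 0.68, adjusted p = 0.0161). With the replicate number as a block the rise with OCA did not pass (adjusted p = 0.0502). The difference between the drugs was -0.01 (interval -0.25 to 0.23, adjusted p = 0.98).

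*Pemt* (ENSMUSG00000000301, chr11:59970614-60046489, - strand), which methylates phosphatidylethanolamine to phosphatidylcholine, ranged from 190.4 to 454 CPM in vehicle mice (median 264). OCA mice ranged from 302 to 420.1 (median 375) and INT-787 mice from 354 to 559 (median 414). Vehicle replicate 10, at 454 CPM, was above every OCA mouse, and the next highest vehicle mouse was at 331. *Pemt* rose 1.59-fold with INT-787 (log2 0.67, interval 0.42 to 0.91, adjusted p = 0.000122) and 1.34-fold with OCA (log2 0.42, interval 0.17 to 0.66, adjusted p = 0.0291). The OCA call was lost, with adjusted p between 0.0519 and 0.0574, when any 1 of vehicle replicates 1, 2, 3, or 7 or OCA replicates 3, 4, or 6 was left out, and without vehicle replicate 10 it was 0.0014. Between the drugs the log2 difference was 0.25 (interval 0.00098 to 0.50), with an adjusted p of 0.262.

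*Pcyt1a* (ENSMUSG00000005615, chr16:32430921-32475070, + strand), the rate-limiting enzyme of the choline route, ranged from 88.1 to 131 CPM in vehicle mice (median 119.9). The range was 98.5 to 129 in OCA mice (median 109.9) and 101 to 155 in INT-787 mice (median 141). All 9 OCA mice lay within the vehicle range, whereas 7 of 9 INT-787 mice lay above the vehicle range. The rise with INT-787 was 1.18-fold (log2 0.24, interval 0.07 to 0.41, adjusted p = 0.0398). It did not pass without vehicle replicate 5, 7, 9, or 10 or INT-787 replicate 1, 2, 3, 4, 6, or 9 (adjusted p from 0.0562 to 0.079), nor without vehicle replicates 5 and 6 together (0.0549) or with the replicate number as a block (0.0556). With OCA the log2 fold change was -0.04 (interval -0.21 to 0.13, adjusted p = 0.889). The drugs differed by 0.28 (interval 0.10 to 0.45, adjusted p = 0.0507). That adjusted p fell to between 0.0167 and 0.0495 without any 1 of vehicle replicates 5 or 10, OCA replicates 2, 3, or 4, or INT-787 replicates 5 or 8, and was 0.017 with DESeq2 and 0.0228 with the replicate number as a block. The exons of *Pcyt1a* overlap those of *Slc51a* on the opposite strand by 567 bases, and *Slc51a* was at 0.585 ± 1.19 CPM in vehicle livers.

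The log2 ratio of *Pemt* to *Pcyt1a*, the 2 routes to phosphatidylcholine, was 1.23 ± 0.49 in vehicle, 1.72 ± 0.18 in OCA, and 1.69 ± 0.27 in INT-787 mice. The difference from vehicle did not pass with INT-787 (0.46, adjusted p = 0.0756) or OCA (0.49, adjusted p = 0.0583) in the exact permutation test. Vehicle replicate 10, with the highest *Pemt* and the lowest *Pcyt1a* level of its group, had a log2 ratio of 2.37. Without it the differences were 0.58 with INT-787 (exact permutation test, adjusted p = 0.00407) and 0.61 with OCA (adjusted p = 0.00222), and without vehicle replicate 5 the OCA difference was 0.53 (0.0426).

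*Pctp* (ENSMUSG00000020553, chr11:89982665-90002894, - strand), the carrier of phosphatidylcholine in the cytosol, was the 1 gene of the 10 that fell. It ranged from 99.7 to 174 CPM in vehicle mice (median 131), 70.1 to 117 in OCA mice (median 92.5), and 86.1 to 126 in INT-787 mice (median 96.6). Vehicle replicate 1 was the lowest of its group at 99.7, and 5 of 9 OCA mice and 6 of 9 INT-787 mice were lower still. *Pctp* fell to 0.761 of the vehicle level with INT-787 (log2 -0.39, interval -0.61 to -0.18, adjusted p = 0.00778) and to 0.715 with OCA (log2 -0.48, interval -0.70 to -0.27, adjusted p = 0.00303). Between the drugs the difference was 0.09 (interval -0.13 to 0.31, adjusted p = 0.742).

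*Lpcat3* (ENSMUSG00000004270, chr6:124663027-124704418, + strand), which places polyunsaturated fatty acids in phosphatidylcholine, ranged from 192 to 305 CPM in vehicle mice (median 225). The range was 159 to 229 in OCA mice (median 214) and 177 to 278 in INT-787 mice (median 229.9). No mouse treated with either drug exceeded the highest vehicle mouse. The log2 fold change was -0.01 with INT-787 (interval -0.20 to 0.18, adjusted p = 0.957) and -0.15 with OCA (interval -0.34 to 0.03, adjusted p = 0.406), and the drugs differed by 0.14 (interval -0.05 to 0.33, adjusted p = 0.456). Its exons overlap those of *Emg1* on the opposite strand by 334 bases.

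**Figure D4:**
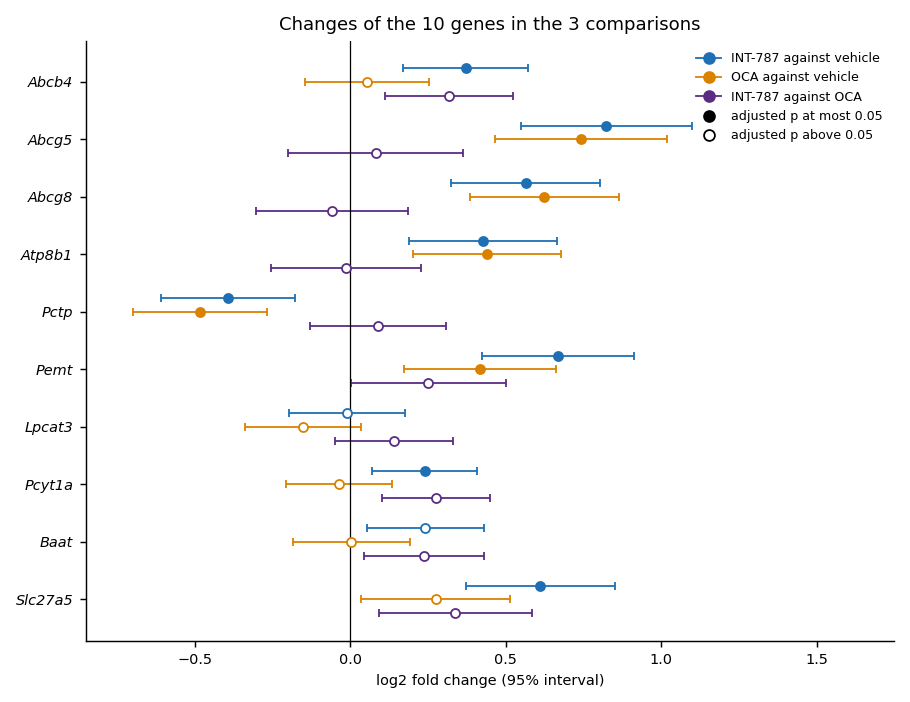
Log2 fold change with its 95% interval (horizontal axis) of the 10 genes in 3 comparisons, INT-787 against vehicle (blue), OCA against vehicle (orange), and INT-787 against OCA (purple). Filled points have an adjusted p of at most 0.05, which 8, 5, and 0 of the 10 genes reached.

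*Slc27a5* (ENSMUSG00000030382, chr7:12988346-12998192, - strand) encodes the ligase that joins bile acids returning to the liver to coenzyme A. It ranged from 425 to 641 CPM in vehicle mice (median 586), 379 to 891 in OCA mice (median 718), and 703 to 1046 in INT-787 mice (median 902). All 9 INT-787 mice lay above the highest vehicle mouse, and 6 of 9 OCA mice did. *Slc27a5* rose 1.53-fold with INT-787 (log2 0.61, interval 0.37 to 0.85, adjusted p = 0.00029). With OCA the log2 fold change was 0.27 (interval 0.04 to 0.51, adjusted p = 0.187). Without OCA replicate 8, which had the lowest *Slc27a5* level of all mice, it was 0.36 with an adjusted p of 0.0215, so 1 mouse decided that call. The drugs differed by 0.34 (interval 0.09 to 0.58, adjusted p = 0.0992).

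*Baat* (ENSMUSG00000039653, chr4:49489422-49506557, - strand), the enzyme of the final conjugation step, ranged from 104 to 171 CPM in vehicle mice (median 130.1). OCA mice ranged from 95.7 to 159 (median 135) and INT-787 mice from 132 to 187 (median 151). Of the INT-787 mice, 2 of 9 lay above the vehicle range. The log2 fold change was 0.24 with INT-787 (interval 0.05 to 0.43, adjusted p = 0.0632) and 0.00 with OCA (interval -0.19 to 0.19, adjusted p = 0.996). The INT-787 value passed, with adjusted p from 0.0205 to 0.0448, without any 1 of vehicle replicate 10, INT-787 replicates 1 or 2, or OCA replicate 8, and with the replicate number as a block (0.0208). Between the drugs the difference was 0.24 (interval 0.04 to 0.43, adjusted p = 0.146). The log2 ratio of *Slc27a5* to *Baat* was 2.16 ± 0.22 in vehicle, 2.40 ± 0.22 in OCA, and 2.52 ± 0.28 in INT-787 mice, and its difference from vehicle did not pass with INT-787 (exact permutation test, adjusted p = 0.0583) or OCA (0.0803). It passed with INT-787 without any 1 of vehicle replicates 5, 6, or 10 or INT-787 replicates 4, 5, or 8 (exact permutation test, adjusted p from 0.0156 to 0.0471), and with OCA without OCA replicate 8 (0.0438).

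Other genes of the same pathways were read from 6 lists that exclude the 10 genes. In the list of canalicular export and sterol handling, 8 of 16 tested genes rose with INT-787 and 5 with OCA, and none of them fell in these comparisons. Over all tested genes 10.2% rose and 9.48% fell with INT-787, and 4.15% rose and 2.45% fell with OCA. The median log2 fold changes of the list were 0.24 and 0.18, beside 0.00 and 0.02 over all tested genes. *Abcb1a*, a drug efflux pump of the canalicular membrane, rose by 1.88 with INT-787 and 1.16 with OCA. *Abcb1a* and *Abcb11* were also higher with INT-787 than with OCA, by 0.71 (adjusted p = 0.0074) and 0.50 (adjusted p = 0.0307). *Abcg1*, a cholesterol efflux transporter, was lower with INT-787 than with OCA (log2 difference -0.47, adjusted p = 0.00762). Without vehicle replicates 5 and 6, 7 of the list rose and 1 fell with INT-787, and 4 rose with OCA.

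Among the other phospholipid flippases and their subunits, 15 of 16 were in the table and 12 were tested. *Tmem30b*, a subunit that flippases need to leave the endoplasmic reticulum, rose with INT-787 by 0.37 (adjusted p = 0.000107). It was the 1 gene of the 12 called with INT-787, where 10.2% of all tested genes rose and 9.48% fell. None of the 12 passed with OCA by edgeR, DESeq2, or limma-voom, with 1 at an unadjusted p under 0.05. Of all tested genes edgeR called 6.6% with OCA, so 1 rise with INT-787 and 0 calls with OCA were near the background.

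In the list of phosphatidylcholine and phosphatidylethanolamine synthesis, 5 of 21 tested genes rose and 1 fell with INT-787 (4 and 1 without vehicle replicates 5 and 6), and 1 rose and 2 fell with OCA. Together 6 of the 21 were called with INT-787, where 19.6% of all tested genes were, and 3 with OCA, where 6.6% were. The median log2 fold changes were 0.02 and 0.01. *Etnk2*, an ethanolamine kinase at the start of phosphatidylethanolamine synthesis, rose by 1.02 with either drug. *Gnmt*, which uses the same methyl donor as PEMT, rose by 0.90 with INT-787 (adjusted p = 2.52e-05). *Chpt1*, the last enzyme of the choline route, fell with both, with log2 fold changes of -0.67 (INT-787) and -0.60 (OCA). *Chkb*, a choline kinase, fell by 0.42 with OCA (adjusted p = 0.00323) and was higher with INT-787 than with OCA by 0.32 (adjusted p = 0.0355). *Pcyt2*, the ethanolamine counterpart of *Pcyt1a*, rose by 0.34 with INT-787 (adjusted p = 0.00939) and was higher with INT-787 than with OCA by 0.33 (adjusted p = 0.0368). *Pcyt1a* and *Chpt1*, at different steps of the choline route, had log2 fold changes of opposite sign with INT-787, 0.24 and -0.67.

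Of 17 tested genes of acyl remodelling and phospholipid transfer, 5 rose and 2 fell with INT-787, where 10.2% of all tested genes rose and 9.48% fell. The median log2 fold changes were 0.07 with INT-787 and 0.05 with OCA. None passed with OCA by edgeR, DESeq2, or limma-voom, with 2 at an unadjusted p under 0.05. Of all tested genes edgeR called 6.6% with OCA, so 0 of 17 was near the background. *Acot13*, a thioesterase known to bind PCTP, rose with INT-787 by 0.59 and was higher than with OCA by 0.67 (adjusted p = 0.0054). *Stard7*, another phosphatidylcholine carrier, rose by 0.48 with INT-787 (adjusted p = 2.46e-05) and was higher with INT-787 than with OCA by 0.26 (adjusted p = 0.0442). *Pla2g6*, a phospholipase, rose with INT-787 by 0.51, *Lpcat2*, an acyltransferase of inflammatory cells, fell by 0.49, and *Pltp*, the plasma phospholipid transfer protein, fell by 0.48. *Lpcat2* was also lower with INT-787 than with OCA (log2 difference -0.53, adjusted p = 0.0143). With vehicle replicates 5 and 6 left out, 6 of the list rose and 2 fell with INT-787. Between the drugs 1 of the list was then higher and 1 lower with INT-787, against 2 and 1 with all mice.

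In the list of bile acid side chain shortening, conjugation, and taurine supply, 5 of 16 tested genes rose and 2 fell with INT-787, and 2 rose and 1 fell with OCA (1 and 2 without vehicle replicates 5 and 6). Over all tested genes the shares were 10.2% and 9.48% with INT-787 and 4.15% and 2.45% with OCA, so the genes that fell, 2 and 1 of 16, were near the background. The median log2 fold changes were 0.03 and -0.02. *Csad*, which makes the taurine precursor hypotaurine, fell with INT-787 (log2 fold change -2.44) and OCA (-2.12), the deepest fall of the neighbouring genes named here. *Amacr*, which acts in side chain shortening, rose by 0.56 and 0.46. *Slc6a6*, the taurine transporter, rose by 0.55 with INT-787 (adjusted p = 0.00118) and 0.42 with OCA (adjusted p = 0.0288). *Shmt2*, which makes mitochondrial glycine, rose with INT-787 by 0.55 and was higher than with OCA by 0.33 (adjusted p = 0.0434). *Acnat2*, an acyltransferase of the BAAT family, fell with INT-787 by 0.52 and was lower than with OCA (log2 difference -0.47, adjusted p = 0.0223).

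Among 11 nuclear receptors and factors known to act on these genes, 4 rose with INT-787 and 3 with OCA (2 without vehicle replicates 5 and 6), where 10.2% and 4.15% of all tested genes rose. Their median log2 fold changes were 0.25 and 0.16. *Srebf2*, which drives cholesterol synthesis genes, rose by 0.40 with INT-787 (adjusted p = 0.00844), and *Srebf1*, which drives fatty acid synthesis genes, rose by 0.43 with OCA (adjusted p = 0.0171). None of the 11 differed between the drugs by edgeR, DESeq2, or limma-voom, with 1 at an unadjusted p under 0.05. Of all tested genes edgeR called 5.38% between the drugs, so 0 of 11 was near the background.

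**Figure D5:**
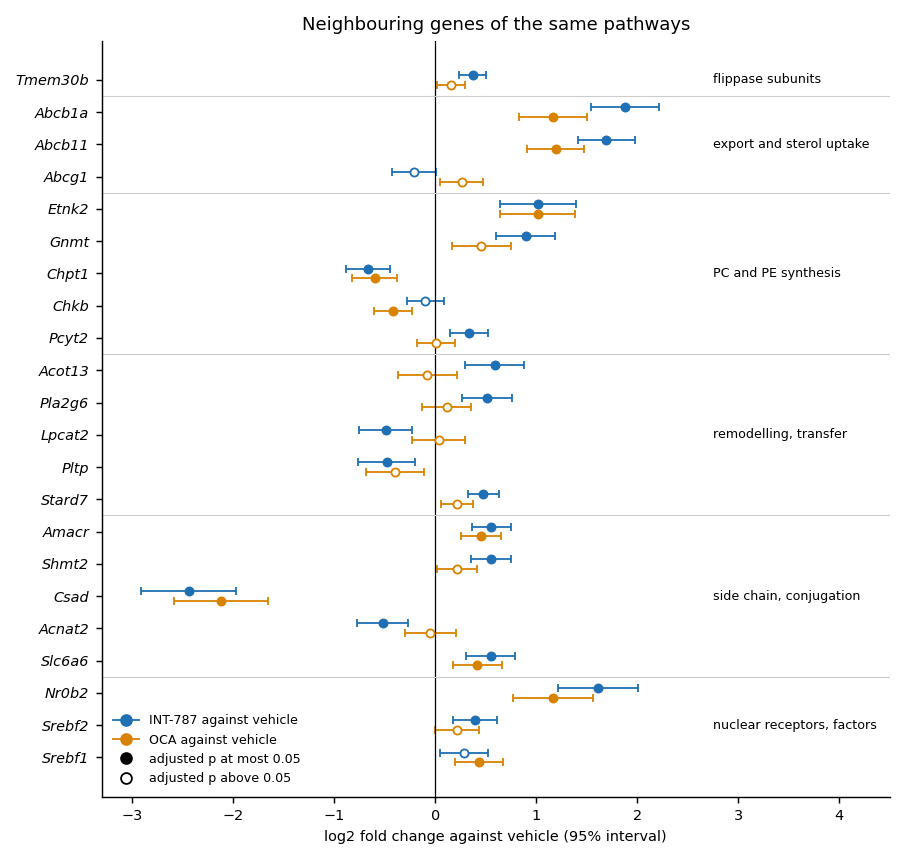
Log2 fold change against vehicle with its 95% interval (horizontal axis) for the neighbouring genes named in the text, grouped by list (PC, phosphatidylcholine; PE, phosphatidylethanolamine), with INT-787 in blue and OCA in orange; filled points have an adjusted p of at most 0.05. Abcb1a and Abcb11 lie farthest to the right (1.88 and 1.70 with INT-787) and Csad farthest to the left (-2.44).

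Markers of liver cell types moved with the groups as well, and their part in the results above was not tested. Among all tested genes 10.2% rose and 9.48% fell with INT-787, and 4.15% rose and 2.45% fell with OCA. Between the drugs, 2.19% of all tested genes were higher and 3.19% lower with INT-787. Of 6 hepatocyte markers, 4 rose with each drug (*Alb*, *Tat*, *Cps1*, and *Ass1*). *Ttr* and *Apoa1* did not pass, with log2 fold changes of -0.33 and 0.23 with INT-787. The summed level of the 6, of which *Alb* made up 74111 CPM in the vehicle mean, ranged from 61047 to 134280.0 CPM in vehicle (median 88870.3), from 104750.0 to 197743 in OCA (median 133010.0), and from 95124 to 168548 in INT-787 mice (median 125893). With INT-787, 5 of 7 stellate cell and fibroblast markers fell (431 to 1033 CPM in sum against 1124 to 2060.3 in vehicle), as did 4 of 8 macrophage and Kupffer cell markers (285 to 447 against 392 to 574). So did 2 of 6 cholangiocyte markers (337 to 539 against 486 to 802, a sum of which *Spp1* made up 593 CPM in the vehicle mean and 355 with INT-787) and 2 of 5 endothelial markers (98.9 to 218 against 139 to 285). With OCA these sums ranged from 1059 to 2589.8, 319.9 to 690.1, 444 to 1621, and 131 to 205 CPM, and no marker outside the hepatocyte list passed with OCA by edgeR, DESeq2, or limma-voom. At an unadjusted p under 0.05 with OCA there were 2 cholangiocyte, 1 macrophage, 1 stellate, 3 endothelial, and 1 lymphocyte markers. Without vehicle replicates 5 and 6, 2 of the macrophage and 1 of the endothelial markers fell with INT-787, and 3 of the hepatocyte markers rose with OCA. Between the drugs, 3 stellate cell and fibroblast (*Col1a1*, *Col3a1*, and *Acta2*), 3 macrophage (*Gpnmb*, *Trem2*, and *Cd68*), and 1 cholangiocyte marker (*Spp1*) had lower levels in INT-787 than in OCA livers, with log2 differences from -1.59 to -0.61, and the hepatocyte marker *Ass1* was higher by 0.41. The T, B, and NK cell markers summed to at most 13.7 CPM and the neutrophil markers to at most 9.24 CPM in any mouse.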

How the data were processed

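The authors prepared stranded mRNA libraries from terminal liver, aligned reads to GRCm38 with STAR, and deposited raw counts per Ensembl gene, 1 column per mouse. The counting program and its use of strand are not given in the sources used here. Depth was 1009593 to 22421506 counts per mouse, and no 2 libraries agreed within sampling noise. Groups came from the labels. Genes kept by filterByExpr (12580) were TMM-scaled and tested with edgeR 4.0.16 (R 4.3.3; glmQLFit, glmQLFTest) in 1 model of the 3 groups, and p was adjusted over these genes (Benjamini-Hochberg, threshold 0.05). Log2 ratios of 2 counts (each + 0.5) were compared by exact two-sided permutation tests, and correlations by 100000 permutations within groups. Alternatives were other normalizations, filters, and covariates, robust estimation, 2-group fits, DESeq2 1.42.0, limma-voom 3.58.1, a ratio pseudocount of 1, and each mouse left out. Tests were tried on simulated data. Annotation was GENCODE M21. Named genes are the members and, per list and comparison, up to 2 called genes per direction with the largest change and at least 5 CPM, plus 4 FXR targets and, for *Abcb4*, *Abcg5*, and *Slc27a5*, the 3 genes most alike across mice. Lists were 6 of pathway neighbours and 7 of cell markers. Members and lists were chosen with earlier results of these data known.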

Additional observations from a re-analysis of the deposited data

Results flagged for a closer look

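In each group the lowest and highest mouse of each of the 10 genes was compared with its nearest neighbour by Dixon's ratio of the gap to the whole range, on the CPM scale and on the log2 scale. Of 30 gene and group pairs, 2 were beyond the critical value on each scale and 3 on either, and chance alone gives about 1 in 20. *Slc27a5* in vehicle replicate 1, the lowest of its group at 425 CPM, was beyond it on both, with ratios of 0.610 (CPM) and 0.657 (log2) against a critical value of 0.466 for 10 mice. *Pemt* in vehicle replicate 10, the highest of its group at 454 CPM, was beyond it on the CPM scale only, with 0.469 there and 0.366 on the log2 scale. *Slc27a5* in OCA replicate 8, the lowest of its group at 379 CPM, was beyond it on the log2 scale only, with 0.518 there and 0.413 on the CPM scale, and the critical value for 9 mice is 0.493.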

How the results depend on the processing

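The number of the 10 genes called stayed at 7 to 9 for INT-787 and 4 to 6 for OCA over all alternatives. In the direct comparison it was 0, but 1 with DESeq2 size factors, 2 with DESeq2, and 0 to 2 with 1 mouse left out. The replicate numbers did not meet the rule for pairs, a correlation over 0.1 in every pair: deviations of same-numbered mice correlated from -0.24 to 0.43, over 0.1 in 2, 3, and 6 of 9 pairs, and 2, 1, and 5 of 9 correlated best with their own number (INT-787 to vehicle, OCA to vehicle, and INT-787 to OCA). The median was 0.18 between the drug groups and -0.04 between each drug and vehicle, and the reason was not tested. The sample numbers in the labels also fall into sets of neighbouring numbers that start at a vehicle mouse, and the labels do not say what a set marks. OCA replicate 9, far beyond the last set, was counted in it for the fit and left out of the correlations. Mice of 1 set correlated over 0.1 in 3 of 9, 4 of 8, and 6 of 8 pairs, and with the set as a factor 8, 5, and 0 genes were called. With the replicate number as a block, 8, 4, and 2 genes were called, *Pcyt1a* (adjusted p = 0.0556) and *Atp8b1* with OCA (0.0502) did not pass, *Baat* with INT-787 (0.0208) did, *Lpcat3* with INT-787 was 0.037, and the *Pemt* to *Pcyt1a* differences were 0.58 and 0.61 (adjusted p = 0.0352). No drug mouse has number 10, so the block also takes out vehicle replicate 10, without which alone both differences were the same and *Baat* with INT-787 was at 0.0205. *Pcyt1a* with INT-787 also did not pass with upper-quartile scaling (0.103), at least 10 counts in every mouse (0.051), or 2 groups (0.0631), nor *Pemt* with OCA with 2 groups (0.063). *Baat* with OCA, at 0.0033, became -0.014 with DESeq2 size factors, -0.031 with upper-quartile scaling, -0.0019 without a filter, -0.0046 with at least 10 counts, -0.0062 with the sample number set, -0.012 with 2 groups, -0.016 with DESeq2, -0.0026 with limma-voom, and -0.027 without vehicle replicates 5 and 6, an alternative chosen after seeing the data.

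With 1 mouse left out, *Baat* with OCA ranged from -0.035 to 0.052, *Lpcat3* with INT-787 from -0.049 to 0.044, and between the drugs *Abcg8* from -0.14 to 0.0011 and *Atp8b1* from -0.084 to 0.038. The ratio differences ranged from 0.16 to 0.28 for *Abcg5* to *Abcg8* with INT-787, from 0.39 to 0.58 and 0.42 to 0.61 for *Pemt* to *Pcyt1a* with INT-787 and OCA (-0.073 to 0.024 between them), and from 0.30 to 0.41 and 0.19 to 0.29 for *Slc27a5* to *Baat*. The cause of these changes was not tested. *Abcb4*, *Slc27a5*, *Pemt*, and *Atp8b1* with INT-787 and *Abcg5*, *Abcg8*, and *Pctp* with either drug kept their call and direction in all 39 alternatives. Vehicle replicate 6 had the fewest counts, so low genes are least precise there.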

Other observations

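Across the 28 mice, with group means removed from log2 CPM, the genes whose levels were most like *Abcb4* among 9355 genes were *Hdlbp* (Pearson r = 0.856), which encodes a lipoprotein-binding RNA-binding protein, *Pygl* (0.815), the liver glycogen phosphorylase, and *Zmpste24* (0.808), a protease that processes lamin A. For *Abcg5* they were *Alas1* (0.708), the rate-limiting enzyme of haem synthesis, *Slc38a4* (0.698), an amino acid transporter, and *Ttc38* (0.687). For *Slc27a5* they were *Cyp27a1* (0.925), the sterol hydroxylase of the acidic route of bile acid synthesis, *Sardh* (0.844), the mitochondrial sarcosine dehydrogenase, and *Ces1e* (0.835), a carboxylesterase. These are descriptions over mice that share library depth and scaling.

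The 45 pairs of members had a median r of 0.18. *Baat* and *Slc27a5* had r = 0.488 (permutation test, adjusted p = 0.0985), which was 0.263 without the 2 mice farthest from the median. *Pemt* was on the low side with *Atp8b1* (r = -0.50, adjusted p = 0.0985) and *Abcb4* (r = -0.46, adjusted p = 0.0985), and neither pair passed the permutation test after adjustment.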
